A study of Homo sapiens and Mus musculus with 18 samples.

Results

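Transcripts of 10 genes of the cadherin switch and the epithelial-to-mesenchymal transition (EMT) were followed from embryonic stem cells (ESCs) to gastruloids in human and mouse. The genes were CDH1, EPCAM, CDH2, CDH11, SNAI1, TWIST1, ZEB1, ZEB2, VIM and FN1, and in mouse the genes of the same names. They were chosen by symbol and were found in the count tables through their Ensembl identifiers. This gave 10 of 44910 human genes and 10 of 29720 mouse genes, and all of them passed the filter on low counts in both species.

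In an EMT, cells of an epithelial sheet give up their junctions and move as single cells. It takes place at the primitive streak of the gastrulating embryo, where epiblast cells become mesoderm and endoderm. E-cadherin, encoded by CDH1, holds epithelial cells together, and its loss with a gain of N-cadherin, encoded by CDH2, is called the cadherin switch. Transcription factors of the Snail, ZEB and Twist families bind E-box motifs and are known repressors of CDH1.

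In human, H9 ESCs were measured in the naive and in the primed state, and RUES2-GLR ESCs, a line with fluorescent germ layer reporters, in the primed state. RA-gastruloids made from the RUES2-GLR line were measured early, at 24 h, and late, at 120 h. The mouse groups, all from E14Tg2a ESCs, were naive ESCs, epiblast-like cells (EpiLCs), and early (day 3) and late (day 6) gastruloids. Each of the 9 groups had 2 biological replicates, collected per stage in 1 batch and sequenced as bulk polyadenylated RNA. Gastruloids are aggregates of ESCs that break symmetry and elongate, and each library pooled many of them.

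Naive H9 ESCs were chemically reset cells kept in PXGL medium on mouse embryonic fibroblast feeders, which were removed by repeated passaging, and primed human ESCs were kept in StemFlex on Geltrex. Cells for RA-gastruloids were treated with the WNT agonist CHIR99021, then with CHIR99021 and retinoic acid, before they were aggregated. The 24 h sample had therefore already met both agents, and Matrigel and retinoic acid were added between the early and the late sample. Mouse naive ESCs were kept in 2i, which contains CHIR99021, and LIF, and EpiLCs were derived from them with activin A and bFGF on fibronectin. Mouse gastruloids were made from naive ESCs, not from EpiLCs, and received a pulse of CHIR99021 in the day before the early sample, without retinoic acid or Matrigel. Stage, medium and, for H9, the line differ together between groups and cannot be told apart.

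Human libraries held 3681739 to 38771193 counts and mouse libraries 6487157 to 20052505. Levels are given as CPM, counts scaled to a common library size with edgeR's TMM factors, and a count of 3, the limit that a count of 0 allows, was worth 0.0715 to 0.956 CPM in human and 0.148 to 0.447 CPM in mouse, for counting error only. A gene was called where its log2 fold change exceeded 1 in size and edgeR's quasi-likelihood test gave p under 0.05 after Benjamini-Hochberg adjustment across the table. With 2 libraries a group, 71.8 to 87.9% of all tested genes did not overlap between the groups compared, so a lack of overlap was common. Mitochondrial genome genes took 21.4 to 22.4% of the counts of the primed RUES2-GLR libraries and 2.68 to 6.71% of those of the other human libraries. With library totals and no TMM factor, the median change of all genes on the log2 scale moved from 0.08 to 0.37 between primed RUES2-GLR ESCs and early RA-gastruloids, and the share of calls that were higher moved from 40.5 to 58.9%. In the comparison of the primed lines that share was 58.4%, and 33.6% without the factor. Summed over 5 naive markers, naive H9 ESCs had 3485 and 3777 CPM and the other human libraries at most 19.3 CPM. Over 4 such markers in mouse, naive ESCs had 1179 and 1205 CPM, EpiLCs 20.8 and 23.6 CPM and early gastruloids 316 and 320 CPM. Primed markers summed to 800 and 718 CPM in late and 313 and 315 CPM in early RA-gastruloids. Both primed lines held more, with 1229 and 1335 CPM (H9) and 2628 and 2896 CPM (RUES2-GLR). Among these markers SFRP2, ZIC2 and DUSP6 rose from early to late, while OTX2 went down from 2.88 and 2.02 to 0.291 and 0.204 CPM. OTX2 had stood at 162 and 146 CPM before aggregation, in the RUES2-GLR libraries. FGF5 had at most 2 reads in any human library.

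The promoters of 5 of the 10 human genes were in the RefSeq table used here, on GRCh38.p14, and the 250 bases before the start were searched for the E-box CAGGTG on both strands (CACCTG on the other). This is the hexamer that ZEB and Snail proteins are known to bind, and it occurred in 17.5% of 35116 such windows. The genes with windows were CDH2, ZEB1, ZEB2, VIM and FN1. A match was found at 2 of the 7 listed ZEB1 starts, and at no listed start of the other genes. It is shown in capitals in a ZEB1 window (chr10:31318167-31318416, plus strand), which holds 1 match and lies within an annotated exon of the antisense gene ZEB1-AS1. The VIM window (chr10:17227991-17228240, plus strand) holds no match and overlaps no annotated exon. They are printed because ZEB1, a factor that binds the hexamer, and VIM, a mesenchymal gene, both rose in RA-gastruloids by the levels below.
ZEB1: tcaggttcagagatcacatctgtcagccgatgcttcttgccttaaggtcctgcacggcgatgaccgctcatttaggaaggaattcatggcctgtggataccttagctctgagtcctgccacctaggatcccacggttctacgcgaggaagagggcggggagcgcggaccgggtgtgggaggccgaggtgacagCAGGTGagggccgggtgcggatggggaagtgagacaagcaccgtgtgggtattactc
VIM: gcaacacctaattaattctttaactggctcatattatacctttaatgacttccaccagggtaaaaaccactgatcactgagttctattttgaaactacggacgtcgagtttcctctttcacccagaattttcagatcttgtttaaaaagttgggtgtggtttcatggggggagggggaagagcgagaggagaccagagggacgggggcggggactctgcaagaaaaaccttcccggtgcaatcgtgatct
A match describes the letters of the window and no binding, and a window without one says nothing of the factors.

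In human, the epithelial genes fell and most of the mesenchymal genes rose from primed RUES2-GLR cells to early RA-gastruloids. CDH1 fell 55.4-fold and EPCAM 20.5-fold, while VIM rose 10.8-fold, CDH11 10.2-fold and FN1 7.73-fold. Of the 10 genes, 7 were called higher and 2 lower, against 29.6% of all tested genes called (12% higher and 17.6% lower). The median log2 fold change of the 10 was 2.98, and that of all tested genes 0.08. CDH2 was the gene not called. In bulk RNA, fewer cells that express a gene and less RNA per cell cannot be told apart.

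**Figure D1:**
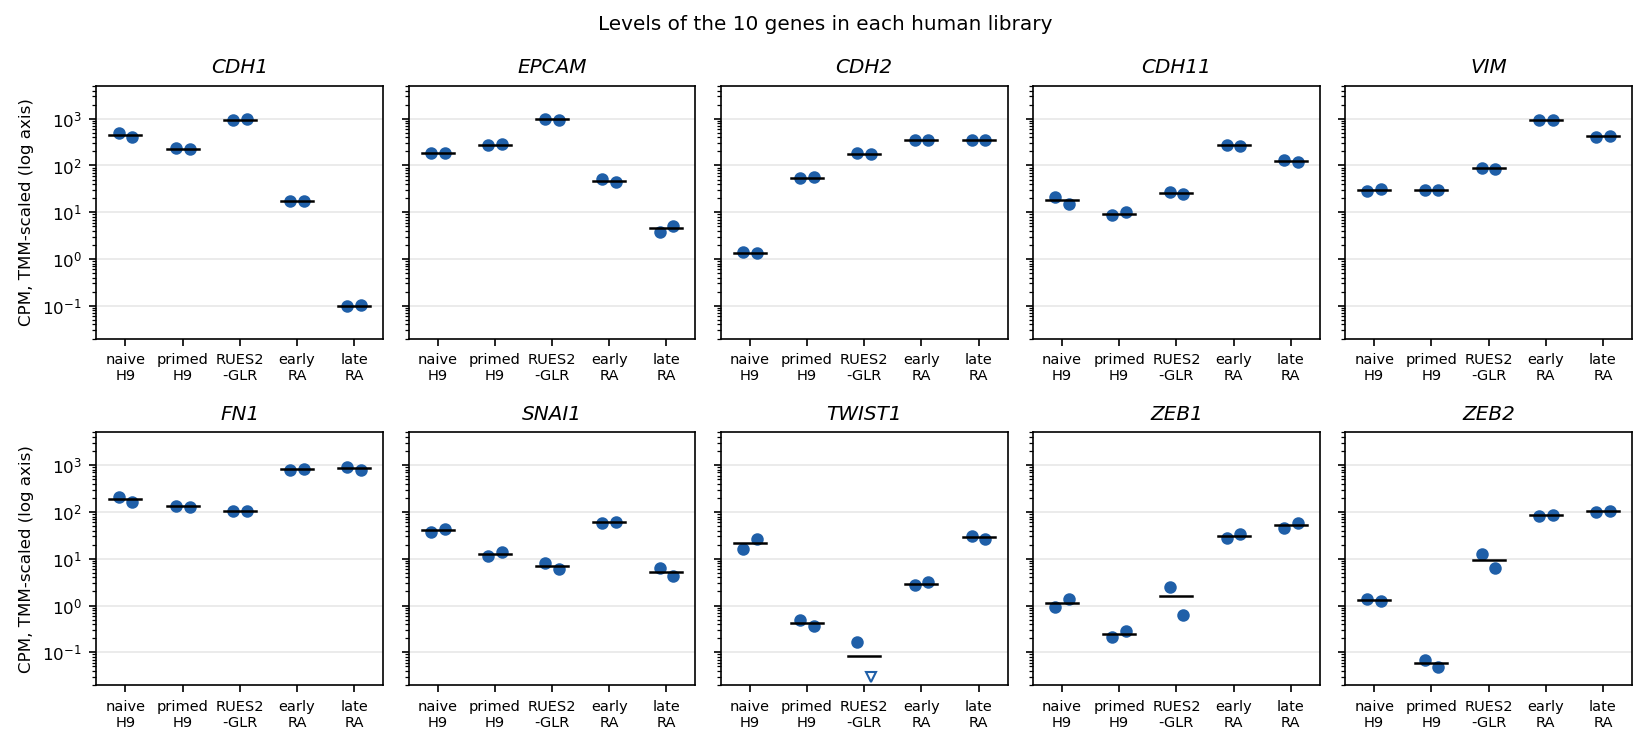
Level of each of the 10 genes in each human library, as TMM-scaled CPM on a log axis (points, 2 replicates per group; bars, group means; the open triangle marks a library with no read, drawn at the bottom). CDH1 and EPCAM were lowest in the late RA-gastruloids, and VIM, CDH11 and SNAI1 had their highest means in the early ones.

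CDH1 (ENSG00000039068) spans 68737292 to 68835537 on chromosome 16 of GRCh38, and 5.71% of its exon bases overlap another annotated gene. Its level was 488 and 415 CPM in the naive H9 libraries, 230.7 and 230.2 CPM in primed H9 and 954 and 968 CPM in RUES2-GLR ESCs. The early RA-gastruloids had 17.3 and 17.4 CPM, and the late ones 2 and 1 reads, at 0.0970 and 0.102 CPM. No group overlapped its neighbour in this order. The fall to early RA-gastruloids had a log2 fold change of −5.79 ± 0.13 (SE, edgeR adjusted p = 2.32e-25). The level in early RA-gastruloids was a further 176-fold above that in late ones (95% interval from counting alone, 59.7 to 857; edgeR adjusted p = 1.06e-18).

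EPCAM (ENSG00000119888, chromosome 2, 47345158 to 47387601) encodes a cell adhesion molecule of epithelia and pluripotent cells. It stood at 183 and 186 CPM in naive H9, 270.4 and 290.6 CPM in primed H9 and 994 and 944 CPM in RUES2-GLR ESCs. It then fell to 50.2 and 44.6 CPM in early and to 3.88 and 5.20 CPM in late RA-gastruloids. Both falls were larger than the spread between replicates, with log2 fold changes of −4.35 ± 0.12 (edgeR adjusted p = 1.89e-23) and −3.44 ± 0.15 (1.77e-18). The late libraries thus still held 80 and 51 EPCAM reads, where CDH1 was at the floor.

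CDH2 (ENSG00000170558, chromosome 18, 27932879 to 28177946), the N-cadherin gene, was already above its naive level in both primed lines. It stood at 1.41 and 1.32 CPM in naive H9, 53.4 and 56.8 CPM in primed H9 and 184 and 177 CPM in RUES2-GLR ESCs. The early RA-gastruloids had 357 and 349.6 CPM and the late ones 342 and 354 CPM. From naive to primed H9 ESCs CDH2 rose 40.1-fold (log2 fold change 5.33 ± 0.16, edgeR adjusted p = 3.29e-23). From primed RUES2-GLR cells to early RA-gastruloids its log2 fold change was 0.97 ± 0.10 (edgeR adjusted p = 1.37e-09), just under the threshold of 1, and 1.25 with no TMM factor, where it was called. Early and late RA-gastruloids overlapped and did not differ by the test (log2 fold change −0.02 ± 0.10, edgeR adjusted p = 0.885).

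CDH11 (ENSG00000140937, chromosome 16, 64943753 to 65126112), the cadherin of mesenchyme and osteoblasts, had 21.3 and 15.1 CPM in naive H9, 8.53 and 10.2 CPM in primed H9 and 26.9 and 25.2 CPM in RUES2-GLR ESCs. It reached 276 and 263 CPM in early RA-gastruloids and stood at 132 and 122 CPM in late ones. The rise was 3.35 ± 0.14 and the later fall −1.08 ± 0.12 on the log2 scale (edgeR adjusted p = 9.38e-19 and 5.31e-09). The peak of CDH11 therefore lay in the early libraries, unlike that of CDH2, whose early and late levels overlapped.

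Among the transcription factors, SNAI1 and TWIST1 had opposite courses from early to late RA-gastruloids. SNAI1 (ENSG00000124216, chromosome 20, 49982980 to 49988886), the Snail factor of the primitive streak, had 7.94 and 6.05 CPM in RUES2-GLR ESCs, 58.4 and 60.9 CPM in early and 6.25 and 4.38 CPM in late RA-gastruloids. The late libraries overlapped the primed RUES2-GLR ones. The rise was 8.01-fold (SE 0.18 on the log2 scale, edgeR adjusted p = 3.29e-15) and the fall 10.8-fold (−3.43 ± 0.16, 1.66e-17). From RUES2-GLR ESCs to late RA-gastruloids, primitive streak and nascent mesoderm markers moved with SNAI1. Their summed level over 5 genes was 3.19 to 3.52 CPM in RUES2-GLR ESCs. It was 544 and 576 CPM in early and 11.8 to 12.9 CPM in late RA-gastruloids. Most of the early sum was TBX6 (357 and 385 CPM) and TBXT (124 and 128 CPM). The sum did not follow SNAI1 in naive H9 ESCs, where it was 6.06 and 6.77 CPM and SNAI1 had 38.3 and 43.1 CPM. The part of streak and nascent mesoderm cells in the course of SNAI1 was not tested.

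TWIST1 (ENSG00000122691, chromosome 7, 19020991 to 19117636), a bHLH factor of mesoderm and neural crest, had 2 reads and no read in the primed RUES2-GLR libraries. It had 29 and 31 reads in early RA-gastruloids (2.79 and 3.13 CPM) and 30.1 and 26.9 CPM in late ones. The early level was 22.7-fold that of primed RUES2-GLR ESCs by counts (95% interval 6.01 to 191, counting error only; edgeR adjusted p = 3.10e-06). The fitted log2 fold change was 4.43, and 8.61 without primed RUES2-GLR replicate 1, which leaves a library with no read. From early to late it rose 9.66-fold (log2 fold change 3.27 ± 0.23, edgeR adjusted p = 2.16e-13). Per length, SNAI1 exceeded TWIST1 23.3-fold in early RA-gastruloids and TWIST1 exceeded SNAI1 4.61-fold in late ones. From early to late, the sum over 4 paraxial mesoderm markers moved with TWIST1, from 25.8 and 27.96 CPM to 403 and 361 CPM. Most of the late sum was PAX3, which the paper also places in the neural tube, at 259 and 249 CPM. PAX1 had 4 and 2 reads there. The sum over 4 neural crest markers went from 5.19 and 5.25 to 86.0 and 98.2 CPM, of which ETS1 was 64.8 and 78.0 CPM. Neither sum followed TWIST1 in the ESCs. The paraxial sum was 1.52 and 1.55 CPM in naive H9 ESCs, where TWIST1 had 16.2 and 26.3 CPM. In primed H9 ESCs, where TWIST1 had 7 and 15 reads, it was 17.4 and 20.1 CPM. The crest sum was 93.1 and 102 CPM in primed H9 ESCs, and 30.5 and 27.7 CPM in RUES2-GLR ESCs. The part of these markers in the rise of TWIST1 was not tested.

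ZEB1 (ENSG00000148516, chromosome 10, 31318495 to 31529814) and ZEB2 (ENSG00000169554, chromosome 2, 144364364 to 144521057) encode zinc finger repressors that bind the E-box shown in the promoter windows. ZEB1 had 31 and 2 reads in the primed RUES2-GLR libraries (2.54 and 0.637 CPM), 28.4 and 33.7 CPM in early and 45.8 and 57.6 CPM in late RA-gastruloids. The early libraries lay far above both primed ones, with a log2 fold change of 3.88 ± 0.26 (edgeR adjusted p = 4.26e-14). Without primed RUES2-GLR replicate 1 it was 5.51, with 2 reads in the remaining library.

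ZEB2 stood at 12.9 and 6.37 CPM in RUES2-GLR ESCs, 84.1 and 84.3 CPM in early and 100.02 and 105 CPM in late RA-gastruloids, and rose 7.63-fold to early (log2 fold change 2.93 ± 0.17, edgeR adjusted p = 9.04e-16). It was 3.64 on the log2 scale without primed RUES2-GLR replicate 1. Neither gene was called from early to late (ZEB1 0.72 ± 0.15, edgeR adjusted p = 0.000196; ZEB2 0.28 ± 0.13, 0.0624), while SNAI1 fell at this step. In GENCODE 44, 4.58% of ZEB1 and 4.97% of ZEB2 exon bases overlap an antisense gene, and default counting does not use the strand. The annotation also names 1 pseudogene each for SNAI1 and ZEB2, and default counting leaves out reads that map to both gene and pseudogene.

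VIM (ENSG00000026025, chromosome 10, 17228241 to 17237593) encodes vimentin, the intermediate filament of mesenchymal cells, and FN1 (ENSG00000115414, chromosome 2, 215360440 to 215436073) encodes fibronectin, a matrix protein. VIM had 89.2 and 85.1 CPM in RUES2-GLR ESCs, 922 and 959.9 CPM in early and 412 and 429 CPM in late RA-gastruloids. Its log2 fold changes were 3.43 ± 0.11 and then −1.16 ± 0.10 (edgeR adjusted p = 6.56e-22 and 1.17e-11). VIM-AS1, on the other strand, overlaps 12.7% of the VIM exon bases. FN1 had 107 and 105 CPM in RUES2-GLR ESCs, 795 and 840.4 CPM in early and 909 and 799.8 CPM in late RA-gastruloids. It rose by 2.95 ± 0.12 on the log2 scale (edgeR adjusted p = 1.62e-19), and its early and late libraries overlapped (0.06 ± 0.11, edgeR adjusted p = 0.644).

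From early to late RA-gastruloids, 1 of the 10 genes was called higher (TWIST1) and 5 lower (CDH1, EPCAM, CDH11, SNAI1 and VIM), against 24.9% of all tested genes called (11.8% higher and 13.2% lower). The median log2 fold change of the 10 was −0.55, and that of all tested genes was 0. Over the whole course from primed RUES2-GLR ESCs to late RA-gastruloids, 6 genes were called higher and 2 lower, against 38.3% called (17.3% higher and 21% lower). The 2 not called were CDH2, at 0.95 ± 0.10 on the log2 scale and 1.29 with no TMM factor, where it was called, and SNAI1, at −0.43 ± 0.22 (edgeR adjusted p = 0.0868).

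Between naive and primed H9 ESCs, CDH2 was the 1 gene called higher in primed cells, and SNAI1, ZEB1, ZEB2 and TWIST1 were called lower, against 47.8% of all tested genes called (25.5% higher and 22.3% lower). TWIST1 stood at 16.2 and 26.3 CPM in naive and 0.489 and 0.357 CPM in primed H9 ESCs (log2 fold change −5.72 ± 0.27, edgeR adjusted p = 4.00e-18). SNAI1 stood at 38.3 and 43.1 CPM against 11.4 and 13.7 CPM (−1.67 ± 0.14, 3.30e-12). ZEB1 and ZEB2 were low in both, with 18 to 27 reads in the naive libraries and 1 to 12 in the primed ones. For ZEB2 the naive level was 25.1-fold the primed one by counts (95% interval 8.11 to 126, counting error only). CDH1, at −0.97 ± 0.10, and CDH11, at −0.93 ± 0.15, lay just under the fold threshold in size, and both were called with DESeq2 (−1.08 and −1.05).

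Some markers of other cell types were also higher in the naive H9 libraries. All 4 surface ectoderm and trophoblast markers exceeded 1 CPM there, with a summed level of 161 and 176 CPM against 10.7 to 10.8 CPM in primed H9 ESCs, and GATA3 alone had 109 and 124 CPM. The 9 fibroblast markers summed to 687 and 666 CPM in naive and 680.2 and 703 CPM in primed H9 ESCs. Of these, COL1A1 had 361 and 372 CPM in naive against 136 and 138 CPM in primed H9 libraries, and COL3A1 181 and 172 CPM against 1 and 2 reads. DCN had 154 and 108 reads and LUM 30 and 37 reads in naive libraries, and neither had a read in primed ones. THY1, at 0.209 and 0.287 CPM in naive against 381 and 395 CPM in primed libraries, and PDGFRB, at 0.679 and 1.15 against 32.6 and 31.5 CPM, went the other way. FAP had 5 and 4 reads in naive and none in primed libraries. The part of such cells or of feeder RNA in the naive TWIST1 and SNAI1 levels was not tested.

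The 2 primed lines differed in 7 of the 10 genes, higher in RUES2-GLR in each, against 29.3% of all tested genes called (17.1% higher and 12.2% lower). With no TMM factor SNAI1 was also called, lower in RUES2-GLR (log2 fold change −1.12, edgeR adjusted p = 3.33e-06), and it was −0.78 with the factor. CDH1 was 4.17-fold, EPCAM 3.46-fold and CDH2 3.27-fold higher in RUES2-GLR than in H9, and CDH11 and VIM 2.75-fold and 2.89-fold. ZEB2 had 1 and 2 reads in primed H9 and 157 and 20 in primed RUES2-GLR ESCs, a 216-fold difference by counts (95% interval 72.8 to 1059, counting error only). The call of ZEB1, at 2.95 ± 0.48, rested on RUES2-GLR replicate 1, and it was 1.37 without it (edgeR adjusted p = 0.428). The mitochondrial share of the counts moved with this comparison, and its part was not tested beyond the values without mitochondrial genes, under which 7 genes were again called.

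In mouse, the epithelial genes fell and most of the other genes rose from early to late gastruloids. From EpiLCs to early gastruloids, 6 of the 10 genes had already been called higher, as given below. From early to late gastruloids, Cdh11 rose 275-fold, Twist1 29.4-fold, Cdh2 17.6-fold, Zeb2 9.64-fold, Zeb1 7.81-fold and Vim 6.18-fold, while Cdh1 fell 4.33-fold and Epcam 2.95-fold. These were 6 genes called higher and 2 lower, against 39.2% of all tested genes called (20.1% higher and 19.1% lower). The median log2 fold change of the 10 was 2.80, and that of all tested genes −0.03. Snai1 and Fn1 lay under the fold threshold, at 0.79 ± 0.14 and 0.45 ± 0.05. Some markers of other cell types moved with these rises. The 4 paraxial mesoderm markers summed to 32.2 and 32.0 CPM in early and 156 and 153 CPM in late gastruloids. Among these 4, Meox1 had 2 and 1 reads in early and 140.0 and 135 CPM in late gastruloids. Tcf15 went the other way, from 31.6 and 31.6 to 11.8 and 12.5 CPM, and Pax3 and Pax1 reached at most 3.28 CPM. The 9 fibroblast markers went from 21.9 and 23.2 to 655 and 690 CPM, and 8 of them exceeded 1 CPM in late gastruloids. Of these markers, Fap had 7 and 4 reads there, and Thy1 went down from 13.5 and 13.3 to 1.28 and 1.49 CPM. The part of these markers in the rises was not tested.

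**Figure D2:**
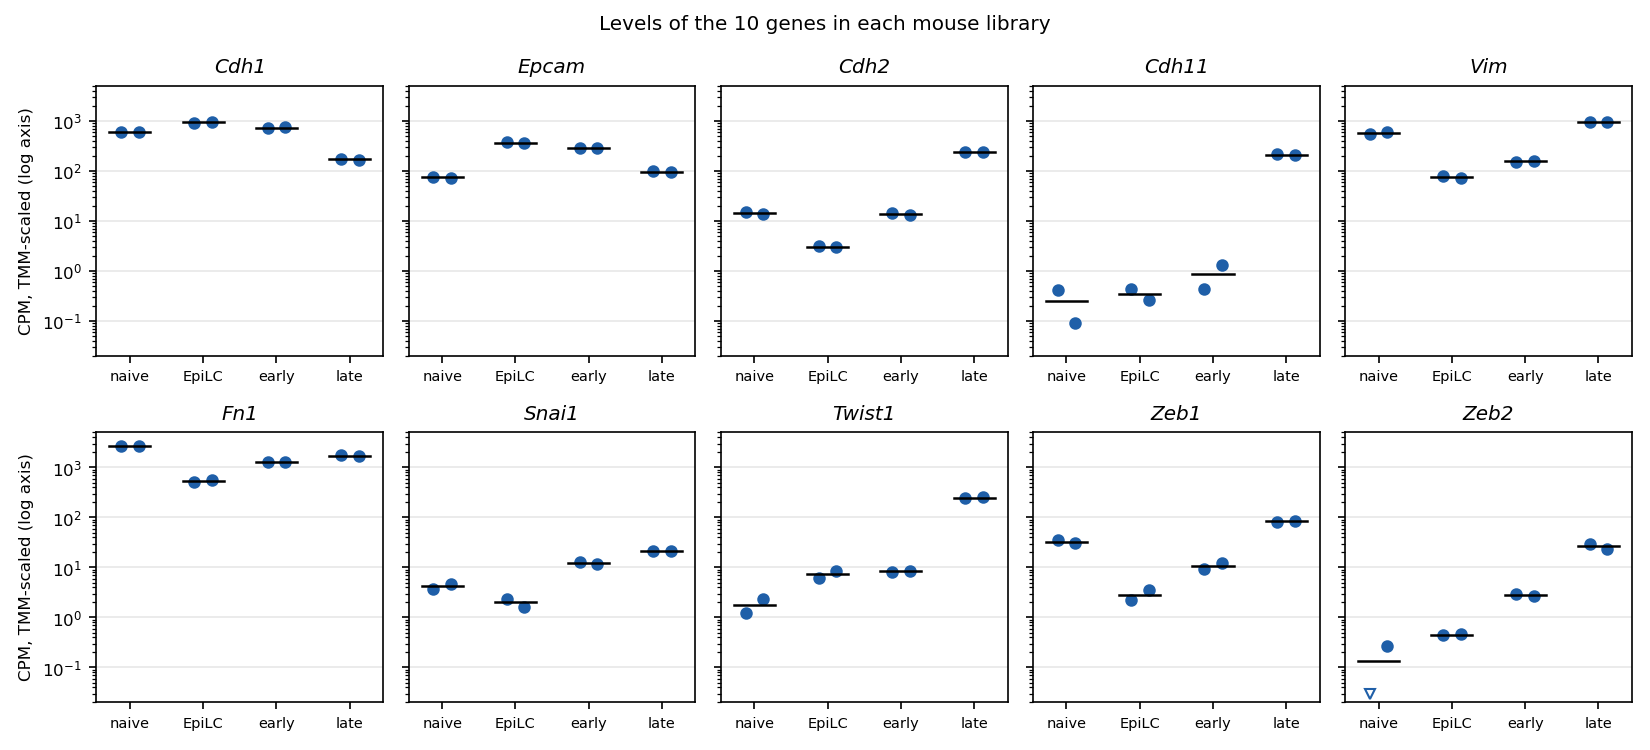
Level of each of the 10 genes in each mouse library, as TMM-scaled CPM on a log axis (points, 2 replicates per group; bars, group means; the open triangle marks a library with no read, drawn at the bottom). Cdh1 was at least 168 CPM in all 8 libraries, and Cdh11, Twist1 and Cdh2 were highest in the late gastruloids, at 209.5 to 255 CPM.

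Cdh1 (ENSMUSG00000000303) spans 107329983 to 107396878 on chromosome 8 of GRCm39. It had 589 and 599 CPM in naive ESCs, 902 and 961 CPM in EpiLCs, 720.5 and 751 CPM in early and 172 and 168 CPM in late gastruloids. No groups overlapped, and the fall at the last step had a log2 fold change of −2.11 ± 0.05 (edgeR adjusted p = 2.08e-40). Epcam (ENSMUSG00000045394, chromosome 17, 87943407 to 87958557) had 74.4 and 73.7 CPM in naive ESCs, 371 and 362 CPM in EpiLCs, 285 and 284 CPM in early and 98.3 and 94.7 CPM in late gastruloids. Its late libraries lay above the naive ones, although it fell by 1.56 ± 0.06 on the log2 scale from early to late (edgeR adjusted p = 2.16e-31).

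Markers of endoderm, a tissue that keeps E-cadherin in the embryo, were higher in the late mouse libraries. All 4 endoderm markers exceeded 1 CPM in the late mouse libraries, and their sum was 266 and 264 CPM there and 3.41 and 3.61 CPM in early gastruloids. Most of the late sum was Gata6, also a gene of cardiac mesoderm, at 178 and 172 CPM, while Sox17, Foxa2 and Foxa1 lay between 25.6 and 38.1 CPM. In human the same sum was 31.5 and 29.3 CPM in early and 2.67 and 2.24 CPM in late RA-gastruloids, where CDH1 had 2 and 1 reads. Their part in the remaining Cdh1 and Epcam was not tested.

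Cdh2 (ENSMUSG00000024304) had 15.2 and 13.5 CPM in naive ESCs, 3.10 and 3.03 CPM in EpiLCs and 14.3 and 13.0 CPM in early gastruloids, which overlapped the naive ESCs. It then reached 242 and 243 CPM in late gastruloids (log2 fold change 4.14 ± 0.08, edgeR adjusted p = 1.18e-45). Cdh11 (ENSMUSG00000031673, chromosome 8, 103358727 to 103512274) had 1 to 15 reads in the 6 libraries before the late stage, and 215 and 209.5 CPM in late gastruloids (8.10 ± 0.14, 1.07e-47). Without either early library its log2 fold change lay between 7.32 and 8.85.

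Snai1 (ENSMUSG00000042821, chromosome 2, 167380115 to 167384734) rose at the early stage and lay higher again in late gastruloids, under the fold threshold. It had 2.37 and 1.64 CPM in EpiLCs, 12.7 and 11.6 CPM in early and 21.2 and 21.3 CPM in late gastruloids, and rose 6.52-fold from EpiLCs to early (log2 fold change 2.70 ± 0.22, edgeR adjusted p = 1.34e-16). The late level was 1.73-fold the early one, without overlap (0.79 ± 0.14, edgeR adjusted p = 1.28e-06). At this step 87.7% of all tested genes did not overlap. The primitive streak markers summed to 257.0 and 256.5 CPM in early and 48.2 and 53.2 CPM in late gastruloids. Twist1 (ENSMUSG00000035799, chromosome 12, 34007670 to 34009828) had 8.30 and 8.62 CPM in early gastruloids, overlapping the 6.06 and 8.55 CPM of EpiLCs, and 240.5 and 255 CPM in late ones (4.88 ± 0.09, 2.62e-46).

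Zeb1 (ENSMUSG00000024238) had 35.2 and 30.7 CPM in naive ESCs, 2.22 and 3.49 CPM in EpiLCs, 9.53 and 12.3 CPM in early and 82.0 and 84.1 CPM in late gastruloids. It was thus lower in early gastruloids than in the naive ESCs they were made from (log2 fold change −1.62 ± 0.12, edgeR adjusted p = 7.66e-18). Zeb2 (ENSMUSG00000026872, chromosome 2, 44873644 to 45007407) had 0 and 3 reads in naive ESCs, 2.91 and 2.64 CPM in early and 30.1 and 23.8 CPM in late gastruloids. Its early level was 17.2-fold the naive one by counts (95% interval 5.69 to 84.9, counting error only). The fitted log2 fold change of 4.01 was 7.94 without naive replicate 2, which leaves a library with no read. Between the paralogues, Zeb1 exceeded Zeb2 per length in each of the 8 mouse libraries, 6.09-fold in late gastruloids. In human, ZEB1 exceeded ZEB2 1.52-fold per length in late RA-gastruloids, and ZEB2 exceeded ZEB1 2.12-fold in primed RUES2-GLR ESCs. By reads, ZEB2 exceeded ZEB1 in both late human libraries, with 2063 against 944 and 1030 against 565 reads. The late human direction thus turned with the length correction, for exons of 8650 bases in ZEB1 and 26151 in ZEB2.

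Vim (ENSMUSG00000026728, chromosome 2, 13578738 to 13587637) and Fn1 (ENSMUSG00000026193, chromosome 1, 71624679 to 71692359) were high in mouse naive ESCs. Vim stood at 561 and 604 CPM in naive ESCs, 80.9 and 71.3 CPM in EpiLCs, 150.1 and 160.0 CPM in early and 961 and 951 CPM in late gastruloids. Fn1 stood at 2694 and 2742 CPM in naive ESCs, 501 and 549.5 CPM in EpiLCs, 1262 and 1268 CPM in early and 1772 and 1693 CPM in late gastruloids. The highest Fn1 levels thus belonged to naive ESCs, and the lowest of both genes to EpiLCs.

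From mouse naive ESCs to EpiLCs, Epcam and Twist1 were called higher and Cdh2, Snai1, Zeb1, Vim and Fn1 lower, against 29.8% of all tested genes called (17.7% higher and 12.1% lower). Zeb1 fell 10.5-fold and Vim 7.75-fold. The Snai1 call was lost without EpiLC replicate 2, where its log2 fold change was −0.88. From EpiLCs to early gastruloids, 6 of the 10 genes were called higher and none lower, against 20.9% called (11.7% higher and 9.24% lower). These were Cdh2, Snai1, Zeb1, Zeb2, Vim and Fn1, while Cdh1 and Epcam moved by −0.34 ± 0.05 and −0.36 ± 0.05 on the log2 scale. Vim, at 1.04 ± 0.06, lay near the threshold and was not called without EpiLC replicate 2 (0.94) or without early gastruloid replicate 2 (0.998).

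Against the naive ESCs from which mouse gastruloids were made, 5 of the 10 genes were called higher in early gastruloids and 3 lower, against 23% called (16.2% higher and 6.81% lower). Epcam rose 3.84-fold, Snai1 2.81-fold and Twist1 4.39-fold, and Zeb2 and Cdh11 were also called higher. Zeb1, Vim and Fn1 were lower by 3.07-fold, 3.77-fold and 2.15-fold. Cdh11 had 3 and 1 reads in naive ESCs and 9 and 15 in early gastruloids, and its call was lost without naive replicate 2 (log2 fold change 0.84) and without early replicate 2 (0.99). Without naive replicate 2, the log2 fold change of Twist1 was 2.73 in place of 2.14.

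The ratio of N-cadherin to E-cadherin transcripts, per length and within each library, does not depend on library scaling. In human its log2 value was −8.90 and −8.76 in naive H9, −2.61 and −2.52 in primed H9 and −2.88 and −2.95 in primed RUES2-GLR ESCs. Early RA-gastruloids had 3.86 and 3.83, and late ones 10.96 and 10.68. CDH1 therefore exceeded CDH2 7.53-fold in primed RUES2-GLR ESCs, and CDH2 exceeded CDH1 14.4-fold 24 h into RA-gastruloid culture. No test of the ratio was run.

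In mouse the log2 ratio was −6.09 and −6.28 in naive ESCs, −8.97 and −9.11 in EpiLCs and −6.47 and −6.66 in early gastruloids. It was −0.32 and −0.28 in late gastruloids, where Cdh1 still exceeded Cdh2 1.23-fold. By reads, without dividing by exon length, Cdh2 exceeded Cdh1 in both late mouse libraries, with 2076 against 1470 and 1634 against 1128 reads. The direction of the late mouse ratio thus turned with the length correction, for which the exons summed to 4574 bases in Cdh1 and 8066 in Cdh2. Cdh11 stood 1.56-fold under Cdh1 per length in late mouse gastruloids, but above it by reads, with 1843 against 1470 and 1407 against 1128. CDH11 exceeded CDH1 7.10-fold per length in early RA-gastruloids.

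**Figure D3:**
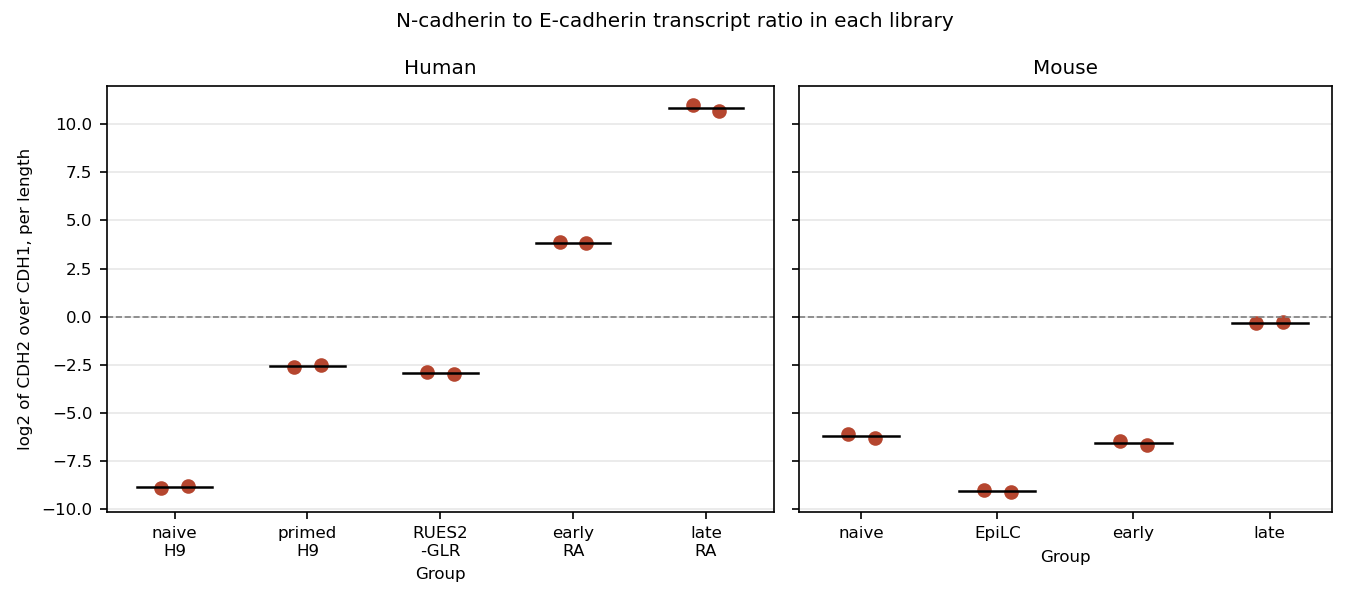
Log2 ratio of CDH2 to CDH1 transcripts per length in each library (points, 2 per group; bars, group means), by group for human and mouse. Values above the dashed line at 0 have more CDH2 than CDH1, which held for the early and late RA-gastruloids, at 3.83 to 10.96, and for no mouse library, although by reads Cdh2 exceeded Cdh1 in both late mouse libraries.

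The difference between the species in each change was tested as an interaction over 14006 genes matched by symbol. The early samples differed between the 2 species in time and agents, and the starting cells in medium, which cannot be told apart from species here. From primed cells to early gastruloids, 8 of the 10 genes changed differently, against 32.6% of all tested genes. As human minus mouse log2 fold change, the difference was −5.57 ± 0.13 for CDH1, −4.11 ± 0.12 for EPCAM and 2.28 ± 0.12 for VIM. For SNAI1 and ZEB2 the difference was not called, at 0.19 ± 0.33 and 0.22 ± 0.63 (edgeR adjusted p = 0.644 and 0.802). The CDH11 difference, 2.01 ± 0.80, was lost without EpiLC replicate 1 or 2 or without early mouse replicate 1, at 1.76, 2.42 and 1.26. The CDH2 difference, −1.31 ± 0.19, was −0.95 and not called with no TMM factor.

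From early to late, 9 of the 10 genes changed differently, against 35.4% of all tested genes, and in each of the 9 the human change was the lower one. CDH11 and VIM were called in opposite directions, down in human and up in mouse. In the fit over both species, CDH2 changed by 4.01 on the log2 scale in mouse and 0.0039 in human, a difference of −4.01 ± 0.13 (edgeR adjusted p = 2.83e-24). SNAI1 differed by −4.08 ± 0.22. FN1 did not differ by the test (−0.24 ± 0.12, edgeR adjusted p = 0.0824). The late samples were taken at different times and under different agents in the 2 species, which cannot be told apart from species here.

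With mouse naive ESCs as the start, 6 of the 10 genes changed differently to the early stage, against 34.1% of all tested genes. EPCAM, ZEB1, VIM and FN1 were each called in opposite directions. ZEB1, VIM and FN1 rose in human and fell in mouse, by differences of 5.33 ± 0.31, 5.19 ± 0.12 and 3.91 ± 0.13 on the log2 scale, and EPCAM fell in human and rose in mouse.

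**Figure D4:**
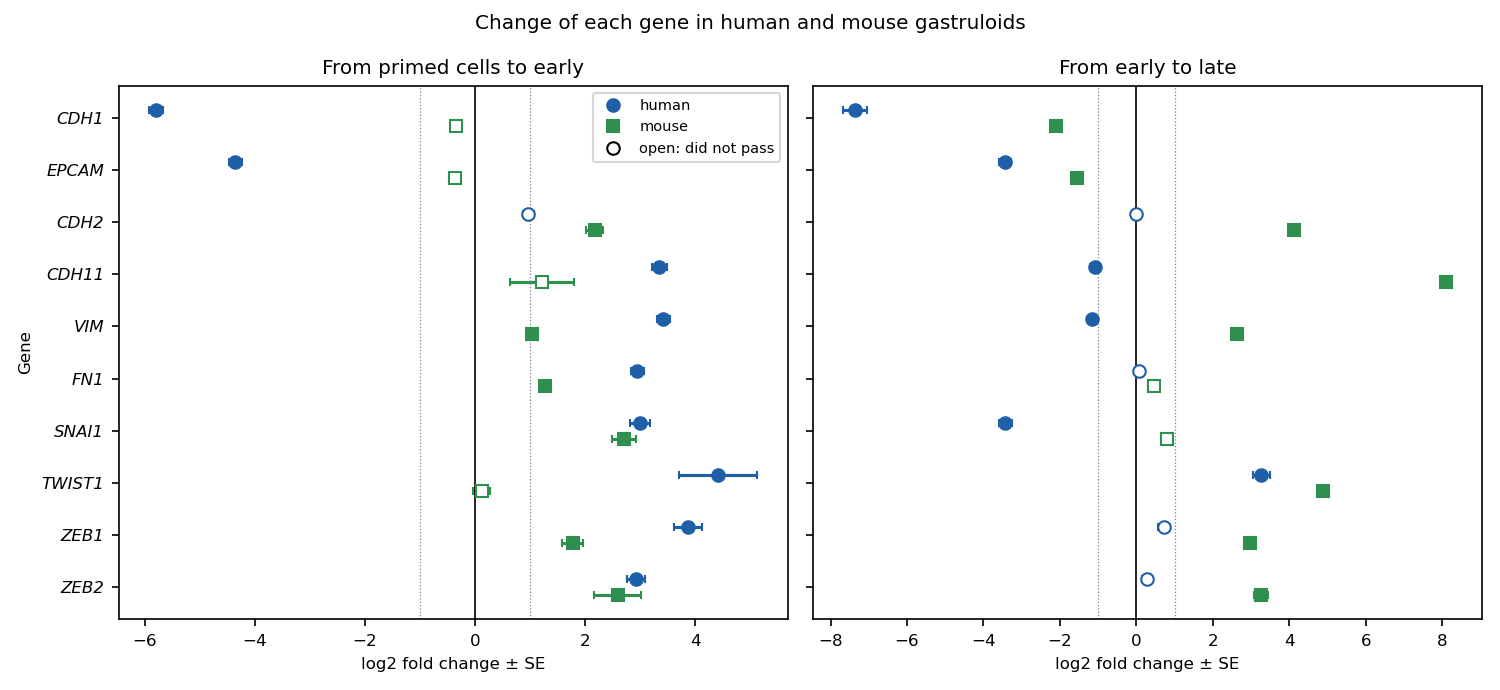
Log2 fold change ± SE of each gene in human (circles) and mouse (squares), from primed cells (RUES2-GLR ESCs or EpiLCs) to early gastruloids and from early to late. Filled symbols were called and open ones were not. CDH1 and EPCAM lie to the left in human at both steps and in mouse at the second, and CDH11 lies at −1.08 in human and 8.10 in mouse at the second step.

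Lists of further genes gave the surroundings of these changes. Of 34 epithelial junction and identity genes, 2 were called higher and 26 lower from primed RUES2-GLR cells to early RA-gastruloids, against 12% and 17.6% of all tested genes. At the next step, which ends at the late stage, there were 2 higher and 25 lower calls, against 11.8% and 13.2%. The median log2 fold changes of the list were −2.89 and −2.40. Among list genes with at least 10 CPM in the higher group, the largest fall at the first step was that of the tight junction gene MARVELD3, from 66.1 to 0.935 CPM (log2 fold change −6.12 ± 0.22), and the largest rise that of the keratin gene KRT19, from 137 to 1396 CPM. At the second step ESRP1, an epithelial splicing regulator, fell from 16.8 CPM to no read, at least 54.9-fold against a floor of 3 counts in the shallower library. PROM1, a membrane glycoprotein gene of epithelial and stem cells, rose from 17.5 to 73.9 CPM.

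In mouse, 21 of 33 tested epithelial genes were higher and 2 lower in EpiLCs than in naive ESCs (17.7% and 12.1% of all tested genes). From EpiLCs to early gastruloids 3 were higher and 7 lower, and 23 were not called (11.7% and 9.24% of all). Between early and late gastruloids 6 were higher and 14 lower, and 13 were not called (20.1% and 19.1% of all), so the share of higher calls was near that of all genes. From naive ESCs to early gastruloids 16 were higher and 2 lower (16.2% and 6.81% of all), led by Esrp1, which rose from 1.89 to 87.9 CPM. From early to late, Grhl2, an epithelial transcription factor gene, fell from 94.5 to 10.3 CPM and Krt8 rose from 17.5 to 153 CPM.

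Of 26 mesenchymal genes in human, 12 were higher and 3 lower from primed RUES2-GLR cells to early RA-gastruloids (12% and 17.6% of all tested genes), and 2 were higher and 10 lower from early to late (11.8% and 13.2%). SNAI2, the Slug factor gene, rose most at the first step, from 0.446 to 182 CPM, and THY1 fell from 519 to 34.8 CPM. COL1A1, a fibrillar collagen gene, fell from 463 to 25.5 CPM at the second step and COL3A1 rose from 36.4 to 92.5 CPM. In mouse, 22 of 23 tested mesenchymal genes were higher and 1 (Thy1) lower from early to late (20.1% and 19.1% of all tested genes), with a median log2 fold change of 4.66. Postn, a matrix gene of mesenchyme, rose most, from no read to 110.2 CPM, at least 418-fold against the floor. From mouse naive ESCs, 8 of the 23 were higher and 4 lower in EpiLCs (17.7% and 12.1% of all tested genes), and 10 were higher and 3 lower in early gastruloids (16.2% and 6.81%). From EpiLCs to early gastruloids 3 were higher and 3 lower (11.7% and 9.24%).

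**Figure D5:**
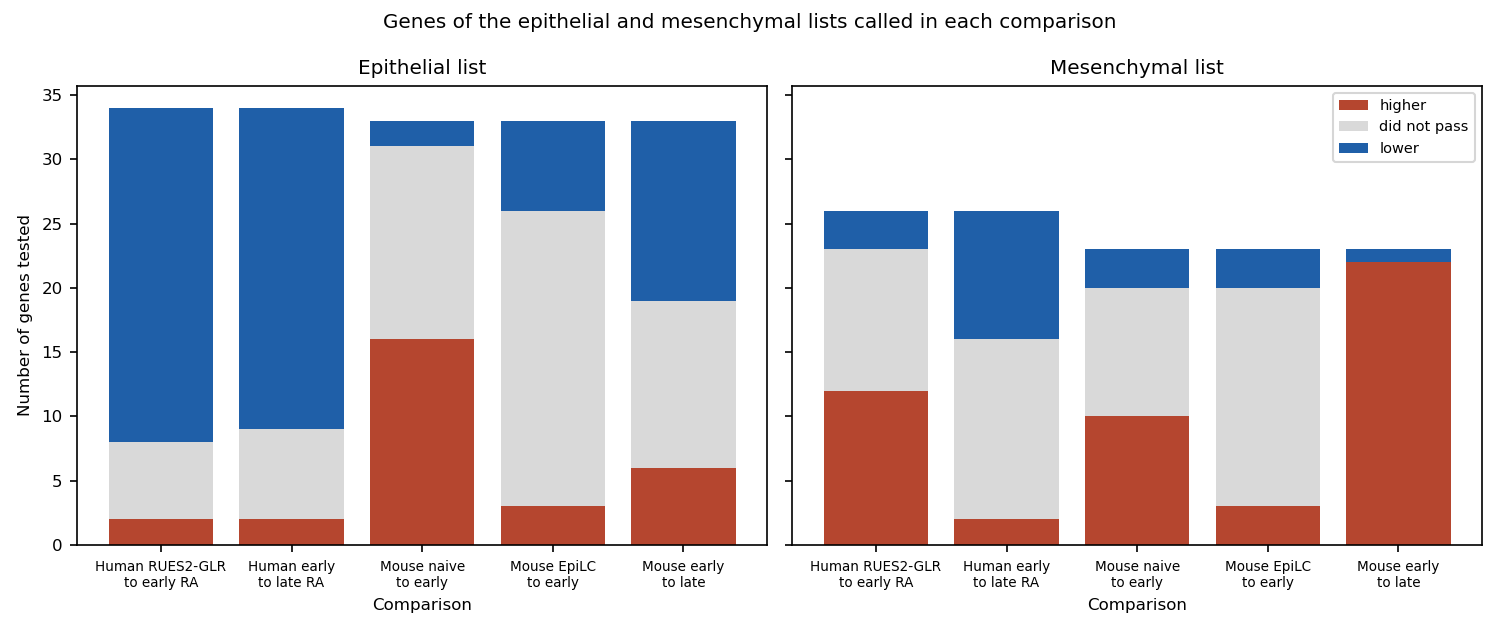
Number of tested genes of the epithelial and the mesenchymal list called higher, called lower or not called, in 2 human and 3 mouse comparisons. Lower calls fill most of the epithelial bars in human (26 and 25 of 34), and higher calls fill 22 of 23 in the mesenchymal bar of mouse early to late.

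Catenins tie cadherins to actin. None of the 7 was called from primed RUES2-GLR cells to early RA-gastruloids in human, against 29.6% of all tested genes. From early to late 2 rose (11.8% of all tested genes), led by CTNNA2, from 9.16 to 43.5 CPM. In mouse, 1 of 6 tested rose and 1 fell from early to late, the latter Jup, the plakoglobin gene, from 199 to 97.2 CPM. These shares were near the 20.1% of all tested genes called higher and 19.1% called lower at that step. Of 14 other classical cadherins tested in human, 4 rose and 3 fell to early RA-gastruloids (12% and 17.6% of all tested genes) and 4 rose and 6 fell from early to late (11.8% and 13.2%). CDH3, the P-cadherin gene and also on the epithelial list, fell from 552 to 11.2 and then to 1.02 CPM (log2 fold changes −5.62 ± 0.14 and −3.54 ± 0.23). CDH24 rose from 23.3 to 225 CPM at the first step, and CDH15, the cadherin of muscle, from 0.243 to 30.7 CPM at the second. In mouse, Cdh5, the endothelial cadherin gene, rose from 0.0494 to 48.3 CPM from early to late.

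Further mouse genes of the lists were called in the comparisons to early gastruloids. Between EpiLCs and early gastruloids, Krt19 rose from 3.99 to 12.1 CPM and Ctnnd2 from 1.87 to 13.2 CPM. Ocln, the occludin gene, fell from 21.5 to 5.43 CPM, Itga5, an integrin gene, from 76.0 to 21.5 CPM and Cdh10 from 12.6 to 2.85 CPM. Between naive ESCs and early gastruloids, Mmp2, a matrix protease gene, rose from 1.14 to 13.1 CPM and Cdh3 from 6.33 to 28.8 CPM. Sparc fell from 816 to 205 CPM, Llgl2 from 237 to 87.5 CPM and Cdh4 from 28.1 to 9.93 CPM.

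The genes whose profile was most like that of CDH1 over the 10 human libraries were CLDN7, SCNN1A and ESRP1, by the root mean square difference of centred log2 CPM (0.742, 0.890 and 0.914). Nearest to CDH2 were HMCN1, CRB2 and LIN7A (0.488, 0.617 and 0.637). Over the 8 mouse libraries, Aplp1, Kdm4c and Gpx7 were nearest to Cdh1 (0.0688, 0.0933 and 0.108), and Itga9, Tnni1 and Rgma to Cdh2 (0.195, 0.282 and 0.302).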

How the data were processed

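Polyadenylated RNA of 18 samples (10 human, 8 mouse) was sequenced by the authors in either of 2 paired-end configurations. Reads were trimmed (Trimmomatic 0.39), mapped by STAR to the human GRCh38 or mouse GRCm39 assembly, and assigned to genes by featureCounts at default settings, which leave out multi-mapping reads and ignore strand. The annotation release is not given in the sources used here. The deposited values are whole-number counts per gene, not normalized, and all columns were mapped. Symbols and coordinates came from GENCODE 44 and M39.

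Counts were analysed with edgeR 4.0.16 in R 4.3.3 (TMM, filterByExpr, glmQLFit and glmQLFTest, 1 fit per species, group as the only term), with 18300 human and 15003 mouse genes tested. SE is the log2 fold change divided by the root of F. Alternatives were DESeq2 1.42.0, other size factors, no low-count filter, only the 2 groups, a replicate block and leaving out each library. Ratios added 0.5 counts and used gene lengths of the count files. Poisson intervals for ratios of counts are exact. Figures used matplotlib 3.10.9. The procedure was tested on simulated data, with changes well above the fold threshold in genes with ample counts. It was not tested on changes near the threshold or in genes with few reads.

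The genes and lists were chosen with earlier results of these data known. All 10 genes are named, and from each list the called genes with the largest rise and the largest fall in the comparisons to early and from early to late, if the higher group had at least 10 CPM. The marker genes named were chosen after their values were seen.

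Replicate numbers are not stated to pair samples. Correlations of deviations of same-numbered samples ran from −0.112 to 0.068 over 10 human group pairs and from −0.048 to 0.008 over 6 mouse pairs. Such values cannot tell whether samples were paired.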

Additional observations from a re-analysis of the deposited data

Results flagged for a closer look

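The changes below differed between human and mouse by the interaction test, and each value is the human minus the mouse log2 fold change. From primed cells to early gastruloids the differences were −5.57 for CDH1, −1.31 for CDH2, 2.01 for CDH11, −4.11 for EPCAM, 1.96 for ZEB1, 4.18 for TWIST1, 2.28 for VIM and 1.57 for FN1. The ZEB1 and TWIST1 values were 3.67 and 8.26 without primed RUES2-GLR replicate 1, which leaves 2 reads and no read in the primed human group.

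From early to late gastruloids they were −5.09 for CDH1, −4.01 for CDH2, −9.03 for CDH11, −1.75 for EPCAM, −4.08 for SNAI1, −2.08 for ZEB1, −2.83 for ZEB2, −1.45 for TWIST1 and −3.64 for VIM. CDH11 lay between −9.78 and −8.28 without an early mouse library.

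With mouse naive ESCs as the start, they were −6.25 for CDH1, −6.45 for EPCAM, 1.36 for SNAI1, 5.33 for ZEB1, 5.19 for VIM and 3.91 for FN1. ZEB1 was 7.04 without primed RUES2-GLR replicate 1.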

How the results depend on the processing

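The number of the 10 genes called stayed within 1.5 times its main value under each alternative, except from naive to primed H9 ESCs, where an adjusted p alone gave 9 in place of 5. With 2 counts added, the log2 cadherin ratio of late RA-gastruloids was 9.98 in place of 10.82. Single values that changed sign were not called under either setting. For VIM from naive to primed H9 ESCs (0.01) these were −0.11 with DESeq2 size factors, −0.10 with DESeq2, −0.018 with no filter and −0.047 without mitochondrial genes, and it ran from −0.091 to 0.039 without a library. For CDH2 from early to late RA-gastruloids they were 0.029 with no filter and 0.041 with no TMM factor, and from −0.042 to 0.0037 without a library, while FN1 ran from −0.034 to 0.17. For mouse Cdh2 from naive ESCs to early gastruloids they were 0.0056 with upper quartile scaling, 0.054 with no TMM factor, and from −0.14 to 0.025 without a library. Mouse Cdh11 from naive ESCs to EpiLCs ran from −0.38 to 1.71 without a library, and Twist1 from EpiLCs to early gastruloids from −0.025 to 0.47.

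Leaving out 1 library at a time gave 5 to 7 called genes from naive to primed H9 ESCs, 6 to 7 between the primed lines, 9 from primed RUES2-GLR to early, 6 from early to late and 8 from primed RUES2-GLR to late RA-gastruloids. In mouse it gave 6 to 8 from naive to EpiLC, 5 to 7 from EpiLC to early, 8 from early to late and 7 to 8 from naive to early. The species differences gave 7 to 8, 9 and 6 to 7. Mouse Cdh11 from naive ESCs to early gastruloids was not called with DESeq2 (adjusted p = 0.0555). The cause of these changes was not tested.

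With the replicate number as a block, 0 of 120 calls of single genes changed, and the counts of called genes were those of the fit without it, for example 9 from primed RUES2-GLR to early RA-gastruloids and 8 from mouse early to late. Samples with the same replicate number are not stated to be paired. No normalization factor and no mitochondrial genes were alternatives chosen after seeing the data. The shallowest library, primed RUES2-GLR replicate 2, limits the low genes most, and 2 replicates a group leave the spread to be estimated across groups.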
